A study of Mus musculus with 74 samples.

Results

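The region described here is the 10 Mb of mouse chromosome 4 from 80 to 90 Mb in genome build mm9 (chr4:80000001-90000000), divided into 250 windows of 40 kb. It is a region that the study displayed, and its windows, taken by their position, were 250 of the 3891 windows of chromosome 4 and of the 68162 windows of the whole table. The data were 74 genome architecture mapping (GAM) libraries, each of which held DNA from 1 nuclear profile (1NP) of 46C mouse embryonic stem cells of strain 129/Ola. The cells were kept in medium with serum and the cytokine LIF, which holds embryonic stem cells undifferentiated, and were moved to a serum-free medium after the last passage before harvest. DNA of each profile was amplified with the WGA4 whole-genome amplification kit and made into a sequencing library with the Nextera kit. There was 1 group and no treatment or control group. Library names began with f13 in 34 libraries and with f14 in 40, and the labels give no meaning for either prefix. The labels do not place the libraries in separate cultures, so every p-value below measures only the spread between these 74 libraries.

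In GAM, frozen cells are cut into thin slices, a laser picks out slices of single nuclei, and the DNA of each slice is sequenced. A slice holds only a sliver of a nucleus, so a locus is detected in a minority of slices, and loci that lie close together in the nucleus are captured in the same slice more often than loci that lie apart. The number of slices that hold both members of a pair of loci is called their co-segregation. The table holds a 1 for a window called present in a library (a positive window) and a 0 otherwise, and keeps no read numbers, so the sequencing depth behind a call is unknown.

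The region holds the starts of 67 annotated protein-coding genes, of which 38 begin between 88 and 89 Mb. Its left side carries Tyrp1, an enzyme of melanin synthesis, and the long gene of Nfib, a transcription factor of lung and brain development. The middle carries Bnc2, which encodes a zinc finger protein, and Sh3gl2, which encodes endophilin A1 of synaptic vesicle endocytosis. The right side carries Mllt3, a subunit of the super elongation complex, the type I interferon genes, and the neighbours Mtap, Cdkn2a and Cdkn2b, of which Cdkn2a and Cdkn2b encode inhibitors of the cell cycle and are often deleted together with Mtap in tumours.

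Sequence from 5 windows at the ends of the detection range is shown first, because how often a sequence recurs in the genome bears on where reads can be placed. Each is the central 200 bases of its window on the plus strand of mm9, and capitals mark bases that lie inside a 32-base word found more than once in the genome. The window chr4:87720001-87760000, in the gene BC057079, was positive in 9 libraries, the highest number in the region, shared with the window to its left, and its central bases (chr4:87739901-87740100) hold no repeated word.
chr4_87.72_Mb: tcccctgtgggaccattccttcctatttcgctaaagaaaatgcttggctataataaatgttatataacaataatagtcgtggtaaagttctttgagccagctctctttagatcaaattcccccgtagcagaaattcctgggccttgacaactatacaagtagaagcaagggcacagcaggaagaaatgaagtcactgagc
The window to its left, chr4:87680001-87720000, was also positive in 9 libraries, and 77.4% of its words are unique. Every one of the 200 bases at its centre (chr4:87699901-87700100), however, lies in a word that occurs at least 44 times.
chr4_87.68_Mb: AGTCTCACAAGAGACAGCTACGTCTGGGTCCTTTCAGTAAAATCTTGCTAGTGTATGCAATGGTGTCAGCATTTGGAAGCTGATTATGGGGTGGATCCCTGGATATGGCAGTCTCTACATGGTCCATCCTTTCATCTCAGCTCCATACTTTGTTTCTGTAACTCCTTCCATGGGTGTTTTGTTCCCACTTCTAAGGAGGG
The window chr4:83920001-83960000, in Bnc2, was positive in 0 libraries, although 99.1% of its 32-base words are unique and its centre (chr4:83939901-83940100) has no capitals either.
chr4_83.92_Mb: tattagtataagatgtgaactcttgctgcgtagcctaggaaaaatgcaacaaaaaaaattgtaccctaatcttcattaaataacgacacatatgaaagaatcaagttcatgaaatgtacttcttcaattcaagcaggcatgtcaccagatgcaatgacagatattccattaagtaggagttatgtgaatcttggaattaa
The window chr4:88400001-88440000, in the interferon cluster, was also positive in 0 libraries. Every one of the 200 bases at its centre (chr4:88419901-88420100) lies in a repeated word, and the words occur 13 to 16 times in the genome.
chr4_88.4_Mb: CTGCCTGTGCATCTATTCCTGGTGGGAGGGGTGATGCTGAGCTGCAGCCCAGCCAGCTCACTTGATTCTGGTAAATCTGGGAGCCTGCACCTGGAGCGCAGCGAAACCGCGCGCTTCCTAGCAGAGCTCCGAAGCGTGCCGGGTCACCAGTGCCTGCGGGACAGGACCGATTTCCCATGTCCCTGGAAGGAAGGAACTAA
The window chr4:81640001-81680000 was positive in 0 libraries as well. Over the whole window 64.8% of words are unique, but each word at its centre (chr4:81659901-81660100) occurs at least 255 times, the highest number counted.
chr4_81.64_Mb: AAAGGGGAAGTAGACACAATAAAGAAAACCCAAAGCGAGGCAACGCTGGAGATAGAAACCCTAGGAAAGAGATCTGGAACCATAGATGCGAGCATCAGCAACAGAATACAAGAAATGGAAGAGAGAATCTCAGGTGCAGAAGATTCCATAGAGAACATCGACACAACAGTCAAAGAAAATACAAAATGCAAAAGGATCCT

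Each window of the region was positive in 4.29 ± 1.92 libraries (SD over 250 windows, median 4, range 0 to 9), compared with 3.62 ± 2.13 on the rest of chromosome 4. At least 1 library was positive in 246 of the 250 windows (98.4%), and 94.8% of the other chromosome 4 windows that contain sequence were detected at least once. The detection numbers were spread narrowly, with 33 windows in 2 libraries, 45 in 3, 52 in 4, 43 in 5 and 26 in 6, and 16 windows in 8 or 9. A window positive in 0 of 74 libraries still allows detection in up to 4.05% of profiles, counting error only. The 4 undetected windows were not neighbours of each other. Besides the 3 shown above they included chr4:85240001-85280000 in an intron of Sh3gl2, in which 88% of words are unique.

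**Figure D1:**
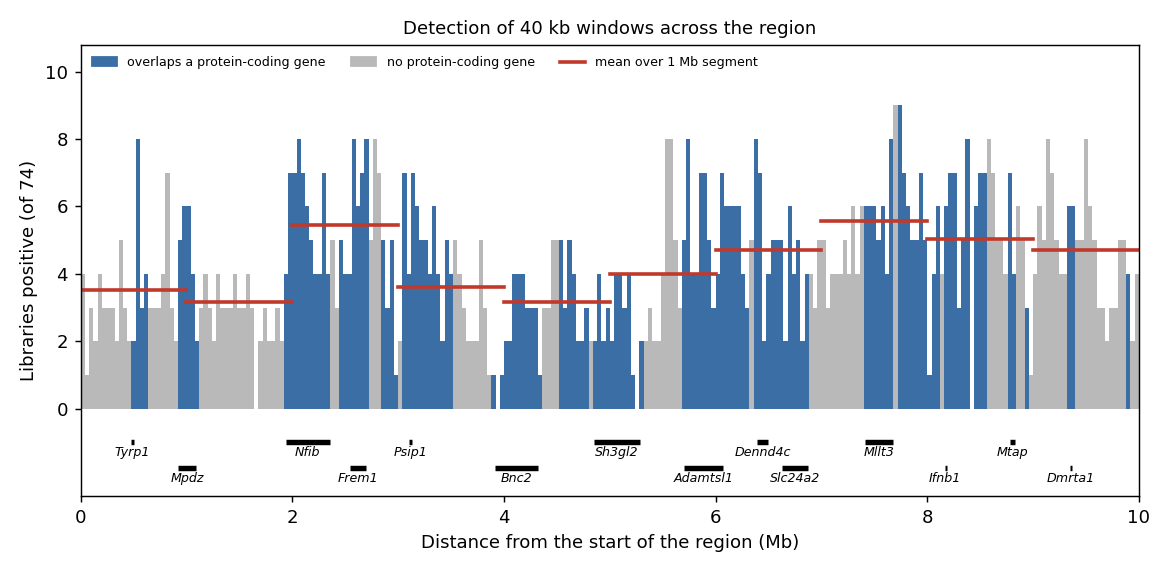
Libraries positive (of 74) in each of the 250 windows of 40 kb, plotted against distance from the start of the region in Mb, with windows that overlap a protein-coding gene in blue, windows that do not in grey, the mean of each 1 Mb segment as a red line and the positions of named genes below. The highest bars, 9 libraries, stand just to the right of Mllt3, and the white gaps are the 4 windows detected in no library.

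On average 86.1% of the 32-base words of the region's windows were unique, and 21 windows were under 70% unique. Detection was close to level from 50 to 100% unique. Windows with 50 to 70% unique words were positive in 3.90 ± 2.02 libraries (20 windows), those with 70 to 90% in 4.53 ± 1.82 (104 windows) and those with 90 to 100% in 4.23 ± 1.95 (122 windows). The undetected interferon window was the only one in the region under 20% unique, at 11.5%. Elsewhere on chromosome 4, 65 of 106 windows under 20% unique were never detected (61.3%), against 36 of 1692 windows that were over 90% unique (2.13%). Across the 247 windows without unknown bases, detection and GC content had a Pearson correlation of 0.07 and a Spearman correlation of 0.18, and the Spearman correlation with the unique share was -0.02. These are descriptions, because neighbouring windows share libraries and base composition.

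The developmental regulators of the left and middle parts were detected unequally. Nfib (chr4:81936077-82351654, minus strand) covers 11 windows, which were positive in 5.73 libraries on average (range 4 to 8). Its start window was positive in 4 libraries, f13a5, f13b1, f13g5 and f14d5. A call anywhere in Nfib was made in 14 libraries, and 1 library, f13a5, held all 11 windows. Bnc2 (chr4:83918446-84320990, minus strand) covers 12 windows, which were positive in 2.33 libraries on average (range 0 to 4). Its start window was positive in 1 library, f13g5, and 10 libraries had a call anywhere in the gene. Bnc2 windows were thus found in fewer libraries than the windows of Nfib, a gene of similar length. No test was made between single genes.

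Between Nfib and Bnc2 lie genes of signalling, matrix and chromatin. Cer1, a secreted antagonist of Nodal, BMP and Wnt ligands, begins in a window positive in 4 libraries, all with the prefix f13. Frem1, an extracellular matrix protein of the basement membrane, begins in a window positive in 8 libraries, 4 of each prefix, and its 5 windows averaged 6.6 libraries. Psip1, a chromatin protein that binds methylated histone H3, and Snapc3, a subunit of the complex that drives small nuclear RNA genes, each begin in a window positive in 7 libraries. The start of Ttc39b, between Frem1 and Snapc3, was positive in 1 library, f14a6. On the far left, Tyrp1 and Mpdz, a scaffold protein with many PDZ domains, were each positive in 2 libraries at their starts. Neighbouring starts thus ranged from 1 to 8 libraries within 1 Mb.

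Detection of the genes further right varied about as widely. Sh3gl2, in the middle of the region, covers 12 windows with a mean of 2.58 libraries (range 0 to 4), a level near that of Bnc2. Adamtsl1, a secreted matrix protein, averaged 5.40 libraries over 10 windows. Housekeeping genes ranged from 3 libraries at the start of Plin2, which coats lipid droplets, and 4 at Rps6, a protein of the small ribosomal subunit, to 6 at Rraga, a GTPase that signals amino acids to mTORC1, and 8 at Dennd4c, an exchange factor for Rab GTPases. Slc24a2, a sodium, calcium and potassium exchanger, began in a window positive in 4 libraries, all with the prefix f14. The start of Mllt3 was positive in 8 libraries, 5 with the prefix f13 and 3 with f14, and its 7 windows averaged 5.86.

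The interferon genes lie in 10 consecutive windows (chr4:88160001-88560000). These windows were positive in 0 to 8 libraries with a median of 6.5, and on average 69.3% of their words were unique (range 11.5 to 92.7%). Any call in the cluster was made in 16 libraries, and 6 libraries held at least 5 of its 10 windows. The start window of Ifnb1, which encodes interferon beta, was positive in 6 libraries. Windows with interferon alpha genes ranged from 3 libraries at Ifna13 to 7 at Ifna12, at Ifna5, Ifna4 and Ifna1, and at Ifna14 and Ifna9, and the last of these windows was positive in 1 f13 and 6 f14 libraries. Klhl9, which encodes an adaptor of a cullin 3 ubiquitin ligase and lies inside the cluster, was positive in 8. Beyond the cluster, the start of Mtap, an enzyme of the methionine salvage pathway, was positive in 7 libraries. Cdkn2a and Cdkn2b begin in 1 shared window (chr4:88920001-88960000) that was positive in 3 libraries, f13a5, f13c6 and f14c3. None of these 3 was positive at Mtap, 0.16 Mb away, and 4 of the 6 libraries positive at Dmrta1, 0.56 Mb from Mtap, were also positive at Mtap.

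Calls of the region were concentrated in few libraries. Of the 74 libraries, 40 had 0 positive windows, 7 had 1 to 4 and 27 had 5 or more. The 40 include the 5 libraries that covered under 1% of the genome (0.02% to 0.76%). Their lack of calls says little about the region, and they stayed in the tests over 74 libraries. The 34 libraries with a call were 17 of each prefix, and held a mean of 31.6 ± 28.6 positive windows (median 24, range 1 to 107). The 12 fullest libraries held 787 of the 1073 calls (73.3%). The fullest was f13a5 with 107 positive windows, a coverage of 42.8% of the region, and f13d3 followed with 73 windows (29.2%). In f13a5 the rest of chromosome 4 was also widely covered, at 29.99%, whereas f13d3 covered 3.10% of it. Library f14f4 had the steepest contrast among the 17 libraries with at least 25 positive windows, with 21.6% of the region and 1.04% of the rest of the chromosome. The ratio of the region to the rest in those 17 libraries had a median of 1.75 and ranged from 1.05 to 20.7. The libraries were selected here for their calls in the region, so a ratio over 1 is no result.

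**Figure D2:**
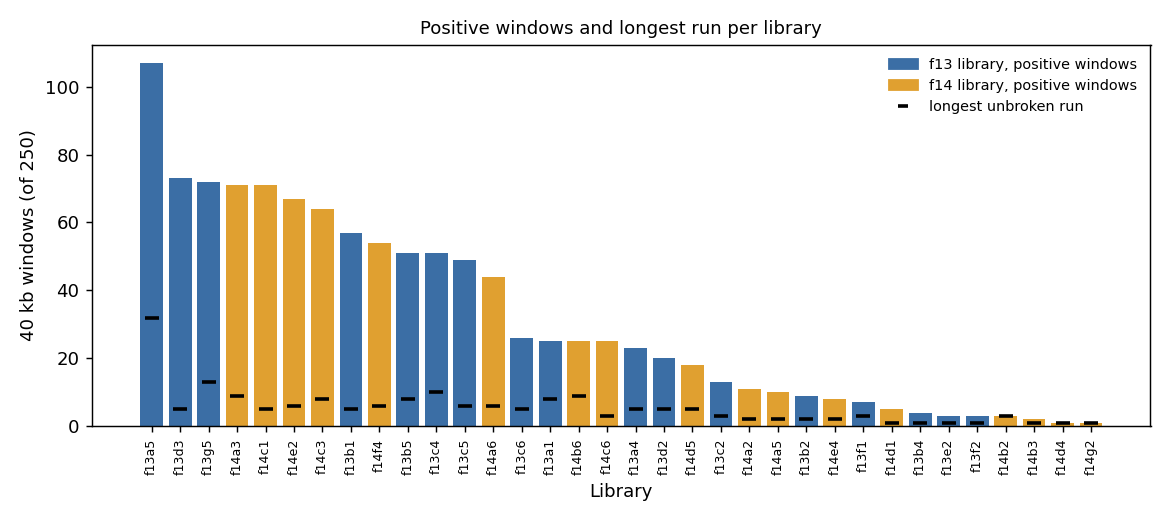
Number of positive 40 kb windows of the region (bars, of 250) in the 34 libraries with at least 1, by name prefix, with the longest unbroken run of positive windows as a black mark. Library f13a5 reaches 107 windows with a run of 32, and in the other libraries the longest run is 13 windows or fewer.

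Positive windows came mostly as short pieces. The 1073 calls formed 505 unbroken runs, of which 267 (52.9%) were single windows that held 24.9% of the calls. In the 14 intervals the share of single-window runs went from 49.1% to 62.1%, and only 30 to 40 Mb had a lower share than the region. The mean run was 2.12 ± 2.15 windows, which ranked 9 of the 14 intervals from the longest (others 1.79 to 2.54). Runs of at least 200 kb numbered 44 and occurred in 19 libraries (10 to 19 in the other intervals). Runs of at least 400 kb numbered 4 in 3 libraries (2 to 7 libraries in the other intervals). The longest run of the region, in f13a5, was 1280 kb (chr4:81680001-82960000) and took in Nfib, Zdhhc21, Cer1 and Frem1, and the longest at 100 to 110 Mb was also 1280 kb. The longest run of the region grew to 2120 kb when gaps of up to 2 negative windows were bridged. The next longest were 520 kb in f13g5 (chr4:82320001-82840000), within the same stretch, 440 kb in f13g5 (chr4:84040001-84480000), from inside Bnc2 rightward, and 400 kb in f13c4 (chr4:83440001-83840000), left of Bnc2. From its first to its last positive window, a library with at least 5 calls spanned 6.33 ± 2.88 Mb (median 6.96, range 0.44 to 9.96), in 18.1 ± 10.9 runs. Most such libraries therefore held pieces spread over much of the region with negative windows between them. A true gap and a window lost in amplification or sequencing cannot be told apart in this table.

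On the scale of 1 Mb segments, a segment was counted as present where at least 5 of its 25 windows were positive. At least 1 segment was present in 24 libraries. In 6 of these it was 1 segment alone, in 6 the segments formed 1 unbroken block, and in 12 they lay in separate blocks, which numbered 2 in 7 libraries and 3 or more in 5. The median library of the 24 held 3.5 segments, and f13a5 held 9, lacking only 83 to 84 Mb.

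The region was not detected at a different rate from the rest of chromosome 4 beyond the spread between libraries. Mean coverage was 5.8% ± 9.96 (SD, n = 74) in the region and 4.89% ± 6.33 on the rest. The difference was 0.909 percentage points ± 7.08, higher in 22 libraries and lower in 47 (two-sided sign-flip permutation test, p = 0.278). Without f13d3 it was 0.564 percentage points. Against the rest of the autosomes it was 0.139 percentage points (p = 0.903), and in windows of 200 kb it was 2.04 (p = 0.227). Among the 14 full 10 Mb intervals from 10 to 150 Mb the region had the next highest coverage, after 10 to 20 Mb (6.62% ± 11.7) and 50 to 60 Mb (6.07% ± 12.1), and 140 to 150 Mb was lowest (3.94% ± 6.58). None of the 13 differences passed the sign-flip test after Benjamini-Hochberg adjustment (0 of 13, lowest adjusted p = 0.561), and 0 had an unadjusted p under 0.05. Coverage was 6.98% ± 11 in the 34 f13 libraries and 4.80% ± 8.98 in the 40 f14 libraries, a difference of 2.18 percentage points (permutation test, p = 0.357).

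Within the region, mean coverage of the 1 Mb segments ran from 4.27% at 81 to 82 Mb and at 84 to 85 Mb to 7.51% at 87 to 88 Mb, which holds Mllt3. The segment with most of Nfib and all of Frem1, 82 to 83 Mb, followed at 7.35%, and the interferon segment, 88 to 89 Mb, was at 6.81%. The interferon segment had a call in 22 libraries and was present in 13, the most of any segment in the region, and 81 to 82 Mb was present in 5, the fewest. None of the 10 segments was called against the rest of chromosome 4 (adjusted p 0.647 to 0.979, 0 at an unadjusted p under 0.05). Across all 152 segments of the chromosome, 0% were called higher and 3.29% lower, and 16 had an unadjusted p under 0.05.

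Windows that overlap a protein-coding gene (136) were positive in 6.23% of libraries on average and gene-free windows (114) in 5.29%. The difference of 0.943 percentage points was positive in 21 libraries and negative in 13, and did not pass the sign-flip permutation test (p = 0.0888, adjusted over the 14 intervals 0.283, background 0% of 14). Gene windows were ahead in 11 of the 14 intervals, 0 of which were called after adjustment and 2 at an unadjusted p under 0.05.

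Co-segregation fell with distance along the region. The ratio of observed co-segregation to that expected from the windows' own detection was 8.36 ± 1.5 for adjacent windows (jackknife standard error over 74 libraries), which were found together in 3.08% of libraries. It fell to 6.56 ± 1.19 at 200 kb, 4.65 ± 0.865 at 1 Mb, 4.01 ± 0.764 at 2 Mb and 3.22 ± 0.72 at 4 Mb. At 8 Mb, where only 50 window pairs were available, it was 1.99 ± 0.723. That last value was 1.04 with isolated calls removed, 1.23 in the f13 libraries and 3.37 in the f14 libraries. Removal of isolated calls raised the ratio of adjacent windows to 13.8, a rise fixed by construction, because only calls with a positive neighbour were kept. Against the 13 other intervals the region stood at the low end for distances up to 1 Mb and again at 8 Mb. It ranked twelfth of 14 at 40 kb, thirteenth at 200 kb and lowest at 400 kb (5.84, others 5.88 to 7.81) and at 1 Mb (4.65, others 4.86 to 6.80), then ninth at 2 Mb, eighth at 4 Mb and twelfth at 8 Mb. The ratio divides by detection, so an interval with high detection can rank low. At 40 kb the interval with the highest coverage, 10 to 20 Mb, ranked 14 (7.97), but that with the lowest, 140 to 150 Mb, ranked 13 (8.12). Without that division, co-segregation at 40 kb was 3.08% in the region and 1.75% to 3.64% in the other intervals. The part of detection in these ranks was not tested. The medians of the ratio in the other intervals were 9.66 at 40 kb, 7.82 at 200 kb and 7.06 at 400 kb. For 1, 2, 4 and 8 Mb they were 5.14, 4.26, 3.46 and 3.57. The gap to the median was smaller than the region's own standard error at 40 kb, 1, 2 and 4 Mb. It was slightly larger at 200 kb and at 400 kb (standard error 1.03), and larger again at 8 Mb. No test of these gaps was made.

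**Figure D3:**
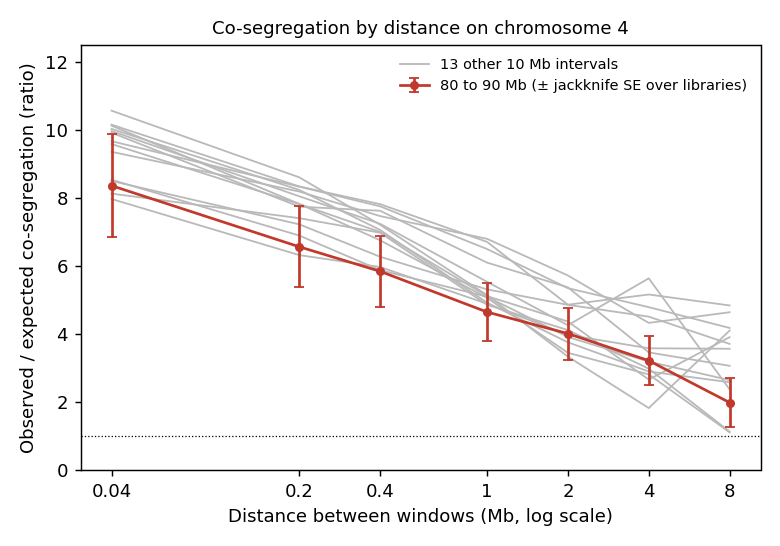
Ratio of observed to expected co-segregation (linear axis) against the distance between windows in Mb (log axis), for the region in red with ± 1 jackknife standard error over libraries and for the 13 other 10 Mb intervals of chromosome 4 in grey. The dotted line marks a ratio of 1. The region falls from 8.36 at 0.04 Mb to 1.99 at 8 Mb and runs along the lower edge of the grey lines up to 1 Mb.

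A measure taken inside each library was also compared with the other intervals. For each library with at least 5 positive windows in the region, concordance was the share of positive windows whose partner at a given distance was also positive. Concordance in the region was 46.5% ± 17.5 at 40 kb (n = 27), against 49% ± 15.3 for the same libraries in the other intervals. The difference was -2.48 percentage points (adjusted p = 0.453, sign-flip permutation test over libraries), higher in 15 libraries and lower in 12. At 400 kb concordance was 27% ± 17.1 against 32.6% ± 12.8, a difference of -5.54 percentage points (adjusted p = 0.232, same test). The 1 Mb difference was also -5.54, from 19.2% ± 16.1 against 24.7% ± 10.4, with 18 of 27 libraries lower (adjusted p = 0.232). When each interval was instead given its own libraries with at least 5 positive windows in it, the region's mean concordance ranked 5 of 14 from the highest at 40 kb, 6 at 200 and 400 kb, 7 at 1 Mb, 1 at 2 Mb and 5 at 4 Mb, so it was not low by that ranking. In the test over the 27 libraries chosen for the region, none of the 6 distances passed, and 0 had an unadjusted p under 0.05. The other intervals were not filtered by their calls in the same way, so this test cannot decide whether concordance in the region differed. The minimum number of positive windows also moved the differences. With a minimum of 10 they were -1.28 percentage points at 400 kb and -1.43 at 1 Mb (adjusted p = 0.776 at both, permutation test, n = 23). With that minimum they turned to 2.04 at 40 kb and 0.406 at 2 Mb. In the f13 libraries alone the 40 kb difference turned to 0.658.

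Segments of the region were cut together more often than their separate frequencies give. Of the 45 pairs of 1 Mb segments, 34 (75.6%) were present together in more libraries than expected by Fisher's exact test after adjustment over all 1323 pairs of chromosome 4 up to 9 Mb apart, of which 48.9% were called. Weighted to the distances of the 45 pairs, the chromosome's share was 56.3%, or 25.3 of 45. The segments were present in too few libraries for any pair to be called apart, and 0 of the 45 had fewer joint libraries than their frequencies give. All 9 adjacent pairs were called (background 83.4%). Of the 36 pairs at least 2 Mb apart 25 were called (background 44.5%, or 49.5% at the same distances), and of the 15 pairs at least 5 Mb apart 7 (background 36.8%, or 37.6% at the same distances), which is near the background. Other 10 Mb intervals had from 14 called pairs of 45, at 140 to 150 Mb, to 39, at 50 to 60 Mb, and only 50 to 60 and 30 to 40 Mb had more than the region. The count for the region was 27 without f13a5, when the share of all chromosome 4 pairs called also fell, to 37.2%, and it was at least 27 and at most 36 when each library was left out in turn. These 45 pairs share segments and libraries, so they are not 45 independent results.

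The most joint libraries and the lowest p belonged to the Mllt3 and interferon segments. The segment at 87 Mb was present in 12 libraries, that at 88 Mb in 13, and both were present in 9, against 2.11 expected (adjusted p = 4.66e-05, Fisher's exact test over 74 libraries). The interferon segment and the next one, 89 to 90 Mb, were present together in 7 libraries (adjusted p = 0.000406). Among distant pairs, 80 to 81 Mb with Tyrp1 and 86 to 87 Mb with Dennd4c, Rps6 and Rraga were present together in 6 of the 8 and 10 libraries that held them (adjusted p = 0.000406), 6 Mb apart. The Nfib and Frem1 segment at 82 Mb and that at 89 Mb, 7 Mb apart, were also together in 6 libraries (adjusted p = 0.00146), and the outermost pair, 80 and 89 Mb, in 4 (adjusted p = 0.0187). Start windows of single genes gave numbers too small to order by distance. Mllt3 and Klhl9, 0.72 Mb apart and each positive in 8 libraries, shared 5, but Slc24a2 and Mllt3, 0.8 Mb apart, shared 0 of 4 and 8. Nfib and Klhl9, 6.04 Mb apart, shared 0 of 4 and 8, but Psip1 and Klhl9, 5.24 Mb apart, shared 3 of 7 and 8.

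The 11 pairs that were not called fell in 2 groups. The segment at 81 Mb, mostly sequence between Mpdz and Nfib, which was present in only 5 libraries, was not called with those at 85, 87, 88 and 89 Mb. The others joined 80 with 88, 82 with 87, 83 with 88 and 89, 84 with 88 and 89, and 85 with 89 Mb. When both segments had the same distance, the share of libraries that held both among those that held either was 37.4% at 2 Mb and 33.3% at 3 Mb, against 31.8% and 25.9% for all pairs of the chromosome, and at 4 and 5 Mb it was 24.4% and 23% against 22.9% and 21.8%. At 6, 7 and 9 Mb the region was ahead too, but it was behind at 1 Mb, with 42.2% against 44.6%, and at 8 Mb, with 20.7% against 21.03%. None of these differences was tested.

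**Figure D4:**
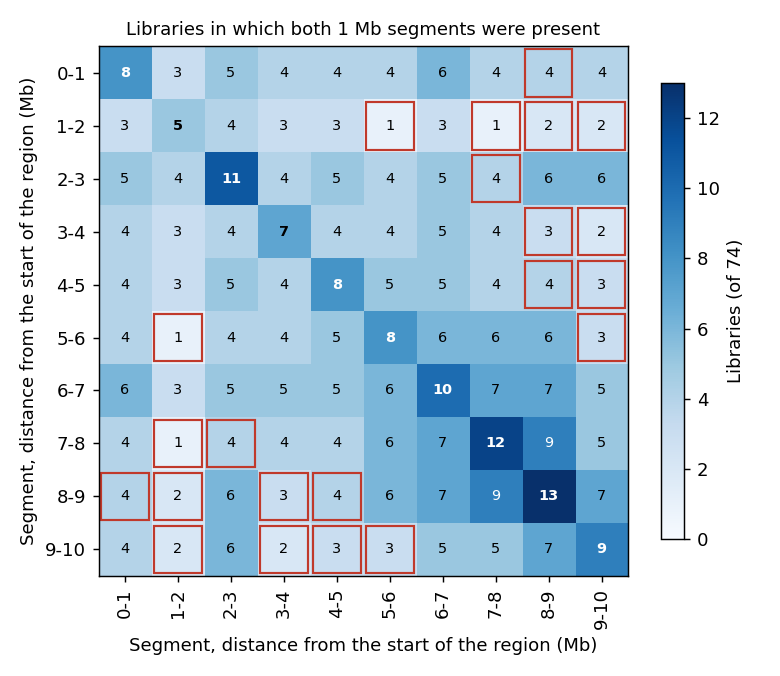
Number of libraries (of 74) in which both 1 Mb segments were present, with both axes as distance from the start of the region in Mb and the number for each segment alone on the diagonal. Red boxes mark the 11 pairs not called by Fisher's exact test. The darkest cell off the diagonal, 9 libraries, joins 7-8 and 8-9 Mb, and most boxes lie in the corner that joins the left side to the right end.

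Libraries differed in how much of the genome they covered. An exact permutation test within 5 strata of coverage of the other autosomes called 21 of the 45 pairs in the region and 29.9% of the pairs of chromosome 4. All 21 were among the 34. The pair at 87 and 88 Mb was one of them, with 2.48 joint libraries expected within strata (adjusted p = 0.000224, exact permutation test), as were the pairs of 80 with 86 Mb and of 82 with 89 Mb. Of the 9 adjacent pairs, 80 with 81 Mb and 83 with 84 Mb were no longer called. The f13 libraries alone gave 5 called pairs (background 8.69%) and the f14 libraries alone 11 (background 17.5%). A requirement of at least 10 of 25 windows for presence gave 2 of 45, below the 9.07% of all chromosome 4 pairs called that way.

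Finer joins and breaks were read from the normalized linkage D', which is 1 when the less frequent window is never found without the other and -1 when the 2 are never found together, averaged over the windows within 400 kb on either side of each junction between windows. The mean over the region was 0.23 (jackknife standard error over libraries 0.10), and the mean over the junctions of chromosome 4 was 0.24. The region's mean was 0.11 in the f13 libraries alone, -0.0104 in the f14 libraries alone and 0.11 with windows taken within 800 kb. The profile of the region held 8 local minima and 10 local maxima, of which the 3 lowest and the 3 highest are described. The lowest value was -0.49 ± 0.21 at 84.04 Mb (± jackknife standard error), inside Bnc2 and at the 2.39th percentile of chromosome 4. When a side was counted as present with at least 3 of its 10 windows positive, 0 libraries held both sides of this junction, 2 held only the left and 3 only the right. Another minimum, -0.40 ± 0.19, stood at 84.80 Mb, between Cntln and Sh3gl2, where 1 library held both sides, 5 only the left and 3 only the right. The next lowest lay at 87.00 Mb between Slc24a2 and Mllt3 at -0.18 ± 0.18, an error as large as the value, and there 3 libraries held both sides and 9 held 1 side. It was -0.28 without f13c5 and 0.0452 with a square of 800 kb in place of 400 kb. These positions were picked as the lowest of the profile, so their values are descriptions.

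The highest junctions lay in Nfib, Frem1 and Mllt3. The value was 0.71 ± 0.44 at 81.96 Mb in Nfib, with 4 libraries on both sides and 5 on the right side only, but it was 0.28 without f13a5, the library with the 1280 kb run. At 82.56 Mb in Frem1 it was 0.64 ± 0.18, with 4 libraries on both sides and 5 on 1 side. At 87.64 Mb in Mllt3 it was 0.57 ± 0.10, the smallest error of the 6 named junctions, and here 11 libraries held both sides and 1 held the left side only. When each library was left out in turn, the Mllt3 value ranged from 0.48 to 0.59, the Frem1 value from 0.47 to 0.67 and the Bnc2 value from -0.64 to -0.40, and the value at 84.80 Mb from -0.56 to -0.37. The size of the square and the choice of libraries also moved the values. With an 800 kb square the value was -0.08 in Bnc2, -0.38 at 84.80 Mb, 0.57 in Nfib, 0.29 in Frem1 and 0.37 in Mllt3. With a 200 kb square it was -0.80 in Bnc2, -0.78 at 84.80 Mb and -0.02 at 87.00 Mb, and 0.79, 0.68 and 0.55 in Nfib, Frem1 and Mllt3. In the f14 libraries alone the 3 minima were at -0.67, -0.59 and -0.23, and the maxima at 0.22, 0.12 and 0.40. In the f13 libraries alone the minima were at -0.51, -0.48 and -0.39, and the maxima at 0.85, 0.73 and 0.64. Detection around the junctions varied too. The 20 windows around a junction were positive in 2.45 libraries on average at 84.04 Mb, 3.35 at 84.80 Mb and 4.25 at 87.00 Mb, and in 4.2 at 81.96 Mb, 5.35 at 82.56 Mb and 5.75 at 87.64 Mb. Across the 251 junctions of the region, linkage and this mean had a Pearson correlation of 0.53 and a Spearman correlation of 0.51, a description over overlapping squares. Its part in the minima was not tested.

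**Figure D5:**
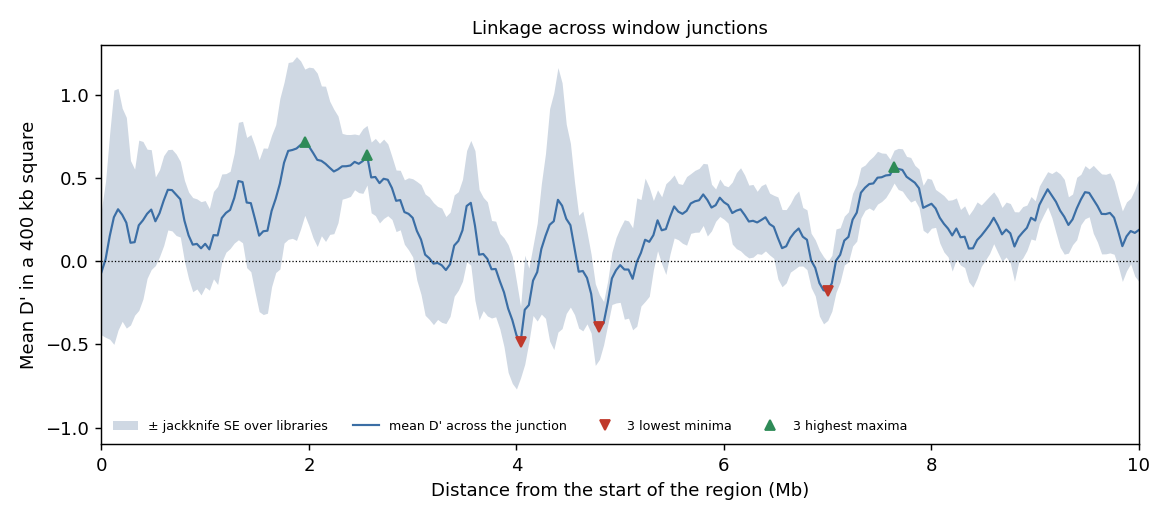
Mean normalized linkage D' between the 10 windows on either side of each junction (blue line), against distance from the start of the region in Mb, with ± 1 jackknife standard error over libraries shaded. Red triangles mark the 3 lowest minima, in Bnc2, between Cntln and Sh3gl2 and left of Mllt3, and green triangles the 3 highest maxima, in Nfib, Frem1 and Mllt3.

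Presence of the region was also compared with that of the other 10 Mb intervals of chromosome 4. A 10 Mb interval was counted as present where at least 10% of its windows were positive, which held for the region in 17 libraries. It was present together with 10 of the 13 other intervals more often than expected (Fisher's exact test, adjusted over 91 pairs), a share of 76.9% that lay close to the background of 72.5% of all interval pairs. With a threshold of 20% of windows it was 4 of 13 (background 16.5%). The lowest p belonged to 60 to 70 Mb, shared by 10 of the 13 libraries that held it (2.99 expected, adjusted p = 8.17e-05). The intervals 50 to 60 Mb and 90 to 100 Mb each shared 11 of 16 libraries with the region (adjusted p = 8.17e-05). Sharing did not fall steadily with distance, since 70 to 80 Mb, which adjoins the region, shared 7 of 12 (adjusted p = 0.0100) and 10 to 20 Mb shared 9 of 17 (adjusted p = 0.00567). The intervals 20 to 30, 30 to 40 and 110 to 120 Mb were not called, with 6, 5 and 5 shared libraries. Within strata of coverage 10 pairs were called as well, against 54.9% of all pairs.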

How the data were processed

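The deposited table holds calls made by the authors, a 0 or a 1 for each 40 kb window of mm9 in each library, with no other unit, and keeps no read numbers. The submitters' processing notes name Bowtie2 2.1 and mm9. The study's methods state a read threshold for calling windows in multiplexed libraries, and the setting used for these 1NP libraries is not given in the sources used here.

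Chromosome lengths of the table and of the NCBIM37 genome used for sequence and genes (GENCODE vM1) were equal for 22 of 22 chromosomes compared. Coverage was the percentage of windows positive. Libraries were the unit of every test: two-sided sign-flip permutation tests with 100000 resamples, Fisher's exact tests and exact permutation tests within 5 strata of coverage, adjusted by Benjamini-Hochberg at 0.05. Errors of co-segregation ratios and D' are jackknife standard errors over libraries, used in place of the resampling first planned. Unique words were counted at 32 bases on both strands. Analyses used Python 3.11.15, numpy 2.4.6 and scipy 1.17.1, and were tested on simulated data. Genes named were protein-coding genes of the region chosen by their known roles, with the highest, lowest and undetected windows, the segment pairs with the lowest p and the 3 most extreme junctions of each kind. The region, these genes and the tests were chosen with earlier results of these data known. Alternatives changed library filters, isolated calls, presence thresholds and square size.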

Additional observations from a re-analysis of the deposited data

How the results depend on the processing

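Depth is unknown, and with 34 libraries holding a call and at most 9 at any window, single-window values are coarse. The 28 results were recomputed under 186 alternatives, 32 of them added once the data had been seen. Among the 186, 23 moved a value, 5 turned a direction and 3 passed a threshold that the main setting did not. The moves were by more than the value's spread, except for counts of called pairs, which have no spread. The others kept direction and side. Concordance at 40 kb turned to 0.658 percentage points in the f13 libraries and to 2.04 with at least 10 positive windows, and at 2 Mb to 0.406. With at least 1 positive window it was -10.2, -8.97 and -8.26 at 200 kb, 400 kb and 1 Mb, but libraries entered by their calls in the region, those with 1 call have concordance 0 there by construction, and nothing is read from it. Removal of isolated calls, 24.7% of those in the region, raised the observed to expected ratio at 40 kb to 13.8 and lowered it at 8 Mb to 1.04. The rise at 40 kb follows by construction, because only calls with a positive neighbour were kept. The observed to expected ratio was 4.37 at 4 Mb in the f14 libraries, and at 8 Mb 1.23 in f13 and 3.37 in f14. Called segment pairs numbered 5 in f13, 11 in f14, 2 with at least 10 of 25 windows and 21 within strata of coverage, against 8.69%, 17.5%, 9.07% and 29.9% of all chromosome 4 pairs. Called interval pairs numbered 4 with a threshold of 20%. Mean D' of the region was 0.11 in f13, -0.0104 in f14 and 0.11 with an 800 kb square, and the junction at 87.00 Mb reached 0.0452 with the 800 kb square. The longest run averaged 14.6 windows with 2 negative windows bridged, and bridging can only lengthen a run. The causes of the other moves were not tested, though fewer libraries entered the f13 and f14 fits. There is 1 group of libraries, so no pairing between groups was possible, and contrasts within a library were paired by library.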
